A study of Mus musculus with 24 samples.

Results

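A set of 8 long noncoding RNAs retained in the nucleus was followed across light exposure and psilocybin in the mouse visual cortex: Kcnq1ot1, Malat1, Neat1, Meg3, Rian, Mirg, Miat and Snhg11. The 8 genes were taken by symbol from a table of 55414 genes, of which 14464 had a count of at least 30 in at least 1 library and were tested, and all 8 members were among them. Kcnq1ot1 was chosen by its low level in the psilocybin-light group, so its values in comparisons with that group are given as a description, with no test. The other 7 were chosen as known nuclear RNAs with earlier results of these data in view.

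The RNA came from the visual cortex of 24 male C57BL/6J mice aged 8 to 10 weeks, littermates assigned to groups at random, with 1 library per mouse and 6 mice per group. All mice were kept on a reversed light cycle and handled in their dark phase. The dark group received PBS and stayed in darkness, the light group received PBS and was placed in light, and the psilocybin-dark and psilocybin-light groups received 5 mg/kg psilocybin, a serotonergic psychedelic, under the same 2 exposures. Tissue was collected 2.5 h later, and polyadenylated RNA of the whole tissue was sequenced. The nuclear location of the members is background knowledge and was not measured.

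Which mice saw light is in conflict between sources. Names here follow the headings of the study's supplementary count table, where numbers 1 to 6 are dark, 7 to 12 psilocybin-dark, 13 to 18 light and 19 to 24 psilocybin-light. For every one of the 24 libraries the GEO labels name the opposite exposure, while the drug is as in the table. Under the labels, what is called light against dark below would be PBS-Dark against PBS-Light, and psilocybin-light against psilocybin-dark would be Psi-Dark against Psi-Light. The drug comparisons would change setting as well: psilocybin-dark against dark would be Psi-Light against PBS-Light, psilocybin given in light, and psilocybin-light against light would be Psi-Dark against PBS-Dark, psilocybin given in darkness. Psilocybin-light against dark would be Psi-Dark against PBS-Light, and psilocybin-dark against light would be Psi-Light against PBS-Dark. The values stay the same, each direction attached to light turns around, and the interaction changes sign.

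Long noncoding RNAs of the nucleus act where they are made or in nuclear bodies. Malat1 gathers in nuclear speckles, which store splicing factors, and Neat1 is the scaffold of paraspeckles, bodies that hold RNA-binding proteins and edited RNAs. Kcnq1ot1 is an imprinted antisense RNA, made from the paternal copy of its locus, that silences neighbouring genes on the same chromosome. Meg3, Rian and Mirg are made from the maternal copy of the imprinted Dlk1-Dio3 domain. Rian carries small nucleolar RNAs and Mirg carries a cluster of microRNAs in its introns and exons. Miat, also called Gomafu, is a neuronal RNA kept in the nucleus, and Snhg11 is a small nucleolar RNA host gene expressed in neurons.

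The members lie at 5 places in the genome (build GRCm39, GENCODE vM39). Kcnq1ot1 (ENSMUSG00000101609) spans chr7:142731402-142850327 on the minus strand and overlaps Kcnq1 on the opposite strand. Malat1 (ENSMUSG00000092341, chr19:5845717-5853602) and Neat1 (ENSMUSG00000092274, chr19:5874736-5897132) are neighbours on the minus strand. Meg3 (ENSMUSG00000021268, chr12:109506877-109538165), Rian (ENSMUSG00000097451, chr12:109570242-109628150) and Mirg (ENSMUSG00000097391, chr12:109696198-109715898) follow each other on the plus strand. Miat (ENSMUSG00000097767) is at chr5:112361094-112377261 on the minus strand and Snhg11 (ENSMUSG00000044349) at chr2:158217558-158228071 on the plus strand. All 8 are annotated as lncRNA, and their reads could fall anywhere in an exon union of between 7886 bases (Malat1) and 93852 bases (Kcnq1ot1). Kcnq1 shares 834 exon bases with Kcnq1ot1 on the opposite strand and had a mean count of 10.5 per library. The antisense gene Gm26953 shares 32.6% of the exon bases of Miat and had a mean count of 2.46. The strand setting of the counting is not given in the sources used here, so reads of these pairs may not be told apart.

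Promoters are shown for the member chosen by its level, Kcnq1ot1, and for Meg3, the first RNA of the Dlk1-Dio3 series. They are windows of 300 bases, 250 before and 50 after the RefSeq gene start (sequence build GRCm38.p6). That start can differ from the end of the annotated gene given above. Each was found once and unchanged in GRCm39, at chr7:142850235-142850534 on the minus strand and at chr12:109506629-109506928 on the plus strand. Capitals mark CCAAT, the letters bound by nuclear factor Y, and TGACGTCA, the cAMP response element.
Kcnq1ot1 promoter: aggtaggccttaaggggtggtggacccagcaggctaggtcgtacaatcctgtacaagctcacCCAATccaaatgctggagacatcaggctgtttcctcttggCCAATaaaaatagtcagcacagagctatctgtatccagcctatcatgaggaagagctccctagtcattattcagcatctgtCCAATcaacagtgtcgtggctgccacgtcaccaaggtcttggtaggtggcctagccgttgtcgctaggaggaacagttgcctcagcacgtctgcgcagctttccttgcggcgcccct
Meg3 promoter: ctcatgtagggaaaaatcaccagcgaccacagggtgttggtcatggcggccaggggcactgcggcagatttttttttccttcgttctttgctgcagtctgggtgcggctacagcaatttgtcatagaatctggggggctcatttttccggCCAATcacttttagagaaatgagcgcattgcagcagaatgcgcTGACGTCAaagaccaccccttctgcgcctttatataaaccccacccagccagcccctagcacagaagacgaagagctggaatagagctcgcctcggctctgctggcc

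Kcnq1ot1 held CCAAT at 3 places on its own strand, starting at -188, -148 and -67 from the RefSeq gene start. Across 32851 promoters of the same length, 37.4% held CCAAT on either strand and 3.37% held it at 3 or more places. The Meg3 window held CCAAT at -100 and TGACGTCA at -57, and 1.79% of all promoters held TGACGTCA. Of the other members, Mirg held CCAAT at -184, and the windows of Malat1, Rian, Miat and Snhg11 and a second window of Meg3 held neither. The windows of Malat1 (chr19:5852651-5852950), Mirg (chr12:109701165-109701464) and Miat (chr5:112376765-112377064) and the second of Meg3 (chr12:109511031-109511330) lay wholly inside the annotated genes. GCGTGGGCG, bound by the Egr factors, and TGANTCA, bound by AP-1, were searched on both strands and found in none of these windows, against 0.612% and 7.81% of all promoters. Neat1 was not in the promoter table. A match is a stretch of letters and not a measured binding site.

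Runs of A matter for these RNAs because the libraries were made from polyadenylated RNA, and mature Malat1 and the long form of Neat1 end in a folded A-rich tract instead of a poly-A tail. The longest runs in the exons of Malat1 and Kcnq1ot1 are shown in capitals with 30 bases on each side, read from GRCm39 on the strand of the gene, at chr19:5845986-5846057 and chr7:142780652-142780752.
Malat1 longest run of A: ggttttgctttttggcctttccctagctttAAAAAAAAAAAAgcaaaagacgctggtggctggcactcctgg
Kcnq1ot1 longest run of A: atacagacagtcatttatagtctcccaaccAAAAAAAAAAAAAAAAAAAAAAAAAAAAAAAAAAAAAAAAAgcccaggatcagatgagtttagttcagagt

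The Malat1 run had 12 A and lay 299 bases from the annotated end of the gene, the only run of at least 10 A in its exons. Kcnq1ot1 held 10 such runs, the longest of 41 A and 49280 bases from its annotated end. Meg3 held 7, Rian 2 and Mirg 1, and none was found in Neat1, Miat or Snhg11. How far such runs took part in the enrichment was not tested.

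The annotation places 13 small nucleolar RNAs and 4 microRNA hairpins in Rian, 15 hairpins in Mirg, 2 in Meg3 and 2 small nucleolar RNAs in Snhg11. Of the 15 within the span of Mirg, Gm54371 lies on the opposite strand and shares no exon bases with it. Mature sequences were found for 14 of the Mirg hairpins, 26 sequences in all (RefSeq, GRCm38.p6). Of all the microRNAs hosted by the members, 1 pair had the same seed, bases 2 to 8, GGUUGCC, given here in capitals beside miR-134-5p, a brain microRNA at the same locus. The libraries did not measure mature microRNAs.
mmu-miR-496a-5p: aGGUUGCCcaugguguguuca
mmu-miR-453: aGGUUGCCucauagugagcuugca
mmu-miR-134-5p: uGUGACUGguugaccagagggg

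Total counts per library ranged from 13552516 to 17906994 over the 24 libraries. The libraries held markers of excitatory neurons in every sample, as a visual cortex label requires, and 4 of them also held cerebellar RNA. The sum of 9 cerebellar markers, all of them tested and none under 10 counts in every library, was 28200 and 59936 normalized counts in dark libraries 1 and 6, 26966 in psilocybin-dark library 12 and 16866 in light library 18, and between 397 and 2551 in the other 20. Excitatory marker sums were lowest in dark libraries 1 and 6, at 35731 and 41085, and between 79254 and 129369 elsewhere. The oligodendrocyte sum was highest in dark library 1, at 119063. The hippocampal sum (10 of 12 markers tested, Iyd under 10 counts throughout) was 5827 to 9234 in the dark group and 2623 to 5723 in the rest. The striatal sum of 5 markers was 1707 to 2952 in dark and 3211 to 3822 in light mice, with no overlap. In light against dark mice, 2 of 5 excitatory, 2 of 5 striatal, 2 of 5 microglial and 1 of 4 endothelial markers were called higher. Called lower were 2 of 5 astrocyte and 5 of 10 hippocampal markers, and of 6 inhibitory markers 1 was higher and 1 lower. No oligodendrocyte or cerebellar marker was called in that comparison, where 15.4% of all tested genes were higher and 16.5% lower. In psilocybin-light against dark mice, 9 of 9 cerebellar, 6 of 10 hippocampal and 3 of 5 astrocyte markers were called lower. Called higher there were 2 of 5 excitatory, 2 of 5 striatal, 1 of 5 microglial and 1 of 4 endothelial markers. Of 6 inhibitory markers 1 was higher and 1 lower, and no oligodendrocyte marker was called. Of all tested genes 17.4% were higher and 21.0% lower there. The part of these markers in the results was not tested. In bulk RNA, fewer cells of a type and less RNA per cell cannot be told apart.

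Per kilobase of exon, the members spanned a wide range of levels. Mean RPKM over 24 mice, computed from the counts, was 67.2 for Snhg11, 52.1 for Meg3, 25.9 for Malat1, 15.0 for Miat, 11.5 for Rian, 1.79 for Neat1, 1.14 for Mirg and 0.0679 for Kcnq1ot1. The ranges over mice of neighbours in this order overlapped from Snhg11 down to Rian and again between Neat1 and Mirg. The lowest Rian value, 9.13, was above the highest Neat1 value, 2.84, and the highest Kcnq1ot1 value, 0.115, was below the lowest Mirg value, 0.715. Kcnq1ot1 ranked 11057th of 14464 tested genes by mean count, and its raw counts ran from 43 to 193 per library. Meg3 ranked 81st.

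The 8 members together took 0.202% ± 0.0387 of all counts in the dark group (SD, n = 6), 0.293% ± 0.0271 in light, 0.215% ± 0.0342 in psilocybin-dark and 0.234% ± 0.0761 in psilocybin-light. The lowest light mouse, at 0.258%, was just above the highest dark mouse, at 0.256%. The psilocybin-light group was the most spread, from 0.167% to 0.368%, its highest value coming from library 22. Library 22 was also the highest psilocybin-light library for Kcnq1ot1, Malat1, Neat1, Meg3, Rian, Miat and Snhg11.

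**Figure D1:**
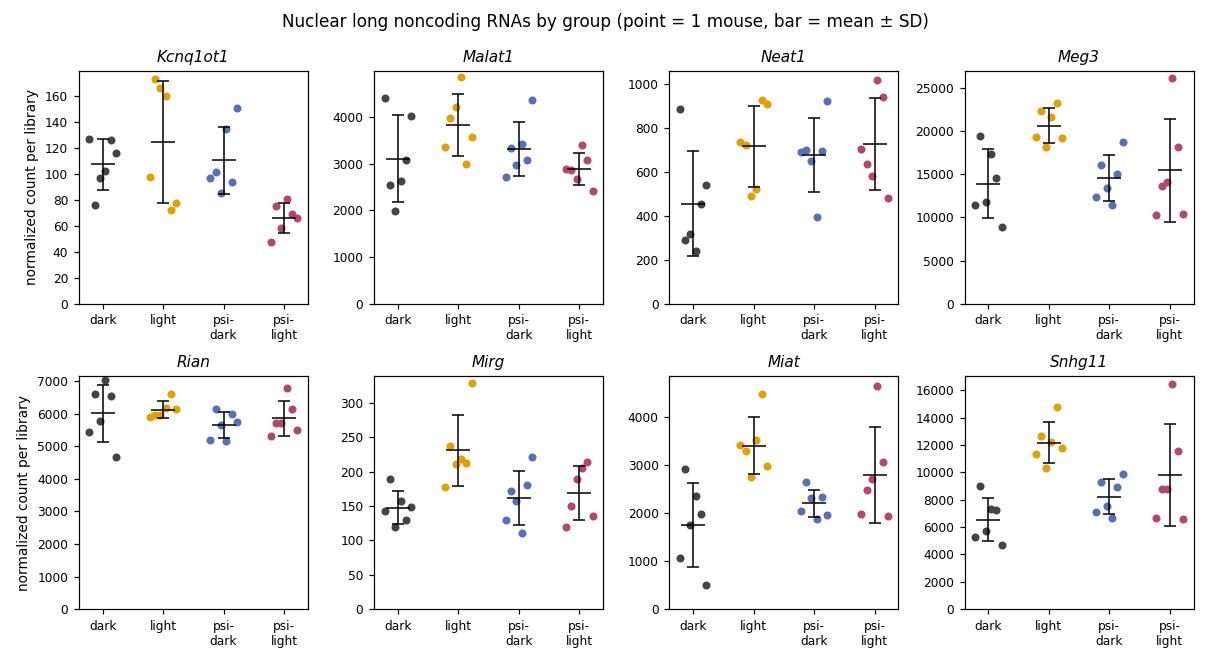
Normalized count (y axis, linear from 0) of each member in every mouse, by group on the x axis, with the mean and SD of 6 mice as bars. Snhg11 in light mice lay between 10319 and 14785, all above the dark mice, and Kcnq1ot1, chosen by this value, was lowest in psilocybin-light mice (48 to 81).

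Light exposure alone was the comparison in which most members changed. Snhg11, Miat, Mirg and Meg3 were higher in light than in dark mice, and no member was lower. Thus 4 of 8 members were called in either direction, where 31.9% of all tested genes were called, 15.4% higher and 16.5% lower. The median log2 fold change of the 8 members was 0.61, against -0.01 over all tested genes. A member was called at an adjusted p under 0.05 by edgeR's quasi-likelihood test.

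Snhg11, the snoRNA host gene, had the smallest p. Its normalized counts were 4722, 6487 and 8993 in dark mice (lowest, median, highest) and 10319, 11996 and 14785 in light mice. The groups did not overlap, which held for 10% of all tested genes. The log2 fold change was 0.90 ± 0.19 (SE; edgeR adjusted p = 0.000989).

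Miat, the neuronal RNA also called Gomafu, had the largest fold change of the members. Dark mice had 497, 1860.2 and 2915 normalized counts (lowest, median, highest) and light mice 2753, 3353 and 4472. Of the light mice, 5 of 6 were above every dark mouse, and the lowest dark value came from library 6. The log2 fold change was 0.95 ± 0.28 (SE; edgeR adjusted p = 0.0114), and adjusted p was 0.0540 when only these groups entered the fit.

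The 3 RNAs of the Dlk1-Dio3 domain did not move alike. Meg3, the first of them and a growth suppressor in tumour studies, had 8917, 13156.5 and 19470.5 normalized counts in dark mice (lowest, median, highest) and 18109, 20483 and 23208 in light mice. Of the light mice, 3 of 6 were above every dark mouse. The log2 fold change was 0.57 ± 0.20 (SE; edgeR adjusted p = 0.0340), and the call was lost in 6 of 24 fits that left out 1 library (1, 3, 6, 14, 16 or 17). Mirg, the microRNA host, had 119.7, 146 and 189 normalized counts in dark mice and 178, 216 and 329 in light mice. Here 5 of 6 light mice were above every dark mouse, and the log2 fold change was 0.64 ± 0.17 (SE; edgeR adjusted p = 0.00612).

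Rian, the snoRNA host between Meg3 and Mirg, had 4687, 6165 and 7046 normalized counts in dark mice and 5914, 6067 and 6599 in light mice. No light mouse was above the dark range, and the log2 fold change of 0.03 had a 95% interval of -0.14 to 0.19 (edgeR adjusted p = 0.824). Its interval lay below the log2 fold changes of Meg3 and Mirg, and the ratios between these RNAs are tested below.

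Of the RNAs of nuclear bodies, Neat1 had 239, 385 and 887 normalized counts in dark mice (lowest, median, highest) and 492, 728 and 927 in light mice. Dark libraries 1 and 6 were the only dark mice within the light range. The log2 fold change was 0.66 ± 0.27 (SE; edgeR adjusted p = 0.0662). Malat1 had 1989, 2846 and 4410.3 normalized counts in dark mice and 2982, 3773 and 4844 in light mice. Only 1 light mouse was above the dark range, and the log2 fold change was 0.30 ± 0.16 (SE; edgeR adjusted p = 0.156). Kcnq1ot1, the imprinted antisense RNA, had 76.1, 109 and 127 normalized counts in dark mice and 72.3, 129 and 173 in light mice. Of the light mice, 3 lay between 159.9 and 173 and 3 between 72.3 and 97.9. Its log2 fold change of 0.21 ± 0.21 was not called (edgeR adjusted p = 0.466).

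The dark libraries rich in cerebellar markers were at the ends of several dark ranges. Libraries 1 and 6 had the highest dark Malat1 (4410.3 and 4017) and Neat1 (887 and 543) and the lowest dark Miat (1054 and 497) and Snhg11 (5269 and 4722). Without them, Neat1 rose by 1.15 (edgeR adjusted p = 0.000853) and Malat1 by 0.59 (edgeR adjusted p = 0.00195) on the log2 scale, and Meg3 was no longer called at 0.39 (edgeR adjusted p = 0.138). The number of members called was then 5 of 8, where 39.6% of all tested genes were called in that fit, and 5 of 8 without libraries 1, 6, 12 and 18, where 43.1% were called. Mirg, Miat and Snhg11 were called in both of these fits. Leaving out dark library 1 alone was enough for the calls of Neat1 (edgeR adjusted p = 0.00426) and Malat1 (edgeR adjusted p = 0.0344).

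A hippocampal score of each library, a different measure from the marker sum, ran from -0.17 to 1.01 in dark and from -0.61 to 0.25 in light mice. Dark library 6, at -0.17, lay within the light range of this score. The score was entered as a covariate. The calls of Meg3, Mirg, Miat and Snhg11 were present in that fit as well, 4 of 8 members, where 8.37% of all tested genes were called. The log2 fold changes of Meg3 and Miat were larger there, at 1.03 (edgeR adjusted p = 0.0293) and 1.61 (edgeR adjusted p = 0.0302).

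**Figure D2:**
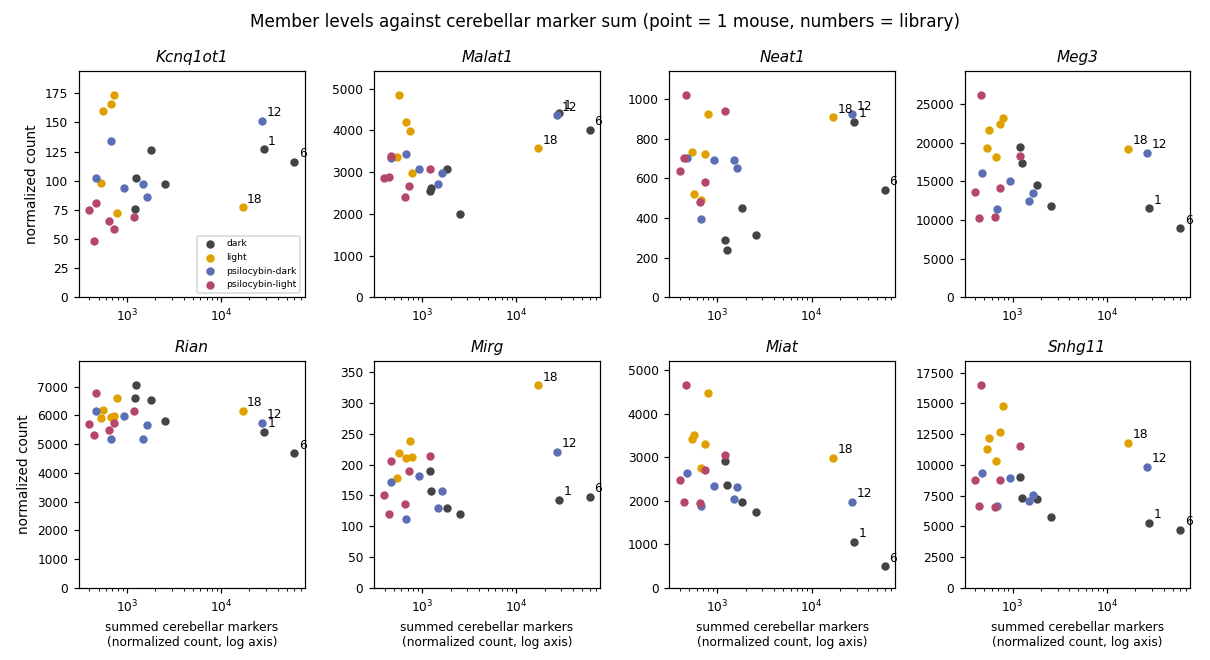
Normalized count of each member (y axis) against the summed normalized count of 9 cerebellar markers (x axis, log scale), 1 point per mouse coloured by group, with libraries 1, 6, 12 and 18 numbered. Dark libraries 1 and 6 sit high for Malat1 and low for Miat, and light library 18 has the highest Mirg value (329).

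Psilocybin given in darkness gave no call among the members on all libraries. Compared with the dark group, 0 of 8 members were called by edgeR, where 24.7% of all tested genes were called, 11.9% higher and 12.8% lower. The unadjusted p was under 0.05 for 1 member, Neat1, with 394, 692 and 923 normalized counts in psilocybin-dark mice (lowest, median, highest) against 239, 385 and 887 in dark mice. Its log2 fold change was 0.57 ± 0.27 (SE; edgeR adjusted p = 0.129).

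The remaining members of the psilocybin-dark group lay closer to the dark group. Snhg11 had a log2 fold change of 0.33 with a 95% interval of -0.06 to 0.72, and Miat of 0.32 with an interval of -0.25 to 0.90. Kcnq1ot1 had 85.7, 99.4 and 151 normalized counts (lowest, median, highest), with a log2 fold change of 0.04 and an interval of -0.39 to 0.48. Malat1, Meg3, Mirg and Rian had log2 fold changes between -0.09 and 0.13.

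These calls also turned on dark libraries 1 and 6. Without library 1 alone, Neat1 was called at 0.87 (edgeR adjusted p = 0.0114), and with 1 surrogate variable at 0.72 (edgeR adjusted p = 0.00386). Without both libraries, 3 of 8 members were called against the dark group, where 33.6% of all tested genes were called in that fit: Neat1 was higher by 1.06 (edgeR adjusted p = 0.00215), Malat1 was higher by 0.38 (edgeR adjusted p = 0.0372) and Rian was lower, at -0.20 (edgeR adjusted p = 0.0238). Without libraries 1, 6, 12 and 18, a choice made after the values were seen, Neat1 and Rian were called, where 38.3% of all tested genes were called. DESeq2 called 0 of 8 members on all libraries, where it called 26.5% of all tested genes.

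Under psilocybin and light together, Snhg11 was called higher than in the dark group, and the other 6 tested members were not called. That is 1 of 7 members, where 38.4% of all tested genes were called, 17.4% higher and 21.0% lower. Snhg11 had 6611, 8807 and 16472 normalized counts in psilocybin-light mice (lowest, median, highest), and 2 of 6 were above every dark mouse. The log2 fold change was 0.59 ± 0.19 (SE; edgeR adjusted p = 0.0170). The call rested on library 22, the highest value: without it the log2 fold change was 0.38 (edgeR adjusted p = 0.0716).

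Neat1 and Miat stood near the threshold against the dark group. Neat1 had 483, 670.3 and 1021 normalized counts in psilocybin-light mice and a log2 fold change of 0.68 ± 0.27 (SE; edgeR adjusted p = 0.0506). Without dark libraries 1 and 6 it was called, at 1.17 (edgeR adjusted p = 0.000609), while Snhg11 was not (edgeR adjusted p = 0.0848). Miat had 1942, 2596 and 4646 normalized counts and a log2 fold change of 0.67 ± 0.28 (SE; edgeR adjusted p = 0.0592). DESeq2 called Neat1, Miat and Snhg11, 3 of 7, where it called 40.0% of all tested genes. Malat1, Meg3, Rian and Mirg had log2 fold changes from -0.11 to 0.19 against the dark group, none called.

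Kcnq1ot1 was selected on its level here. Psilocybin-light mice had 47.9, 67.4 and 81.1 normalized counts (lowest, median, highest), a mean of 66.3 ± 11.8 (SD, n = 6). The group means were 108 ± 19.7 in dark, 125 ± 47.0 in light and 111 ± 25.9 in psilocybin-dark mice. Every psilocybin-light mouse was below every psilocybin-dark mouse, and 6.42% of all tested genes did not overlap between these groups. Of the psilocybin-light mice, 5 of 6 were below every dark mouse and 4 of 6 below every light mouse. The log2 differences were -0.70 from dark, -0.91 from light and -0.74 from psilocybin-dark mice. Over 24 fits that each left out 1 library, the difference from light mice ran from -1.02 to -0.79, and that from psilocybin-dark mice from -0.81 to -0.63. None of these differences was tested. Because the gene was chosen by this low level, the ranges give no support to the differences.

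**Figure D3:**
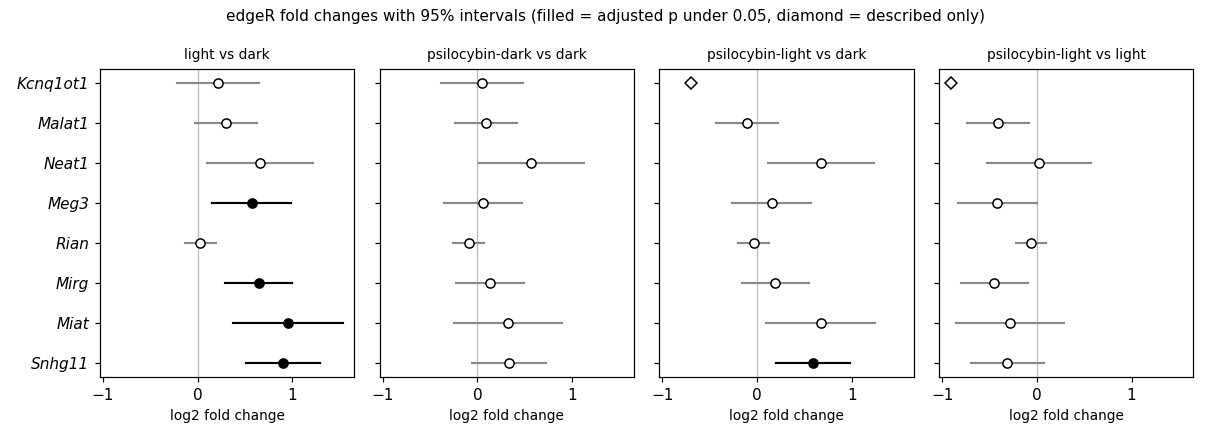
Log2 fold change (x axis) of each member in 4 comparisons, with 95% intervals from the edgeR fit as lines, filled points for an adjusted p under 0.05 and diamonds without a line for Kcnq1ot1 where it was chosen by that value. Snhg11, Miat, Mirg and Meg3 are filled for light against dark (0.57 to 0.95), Snhg11 for psilocybin-light against dark (0.59), and none elsewhere.

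Adding psilocybin to light gave no call among the 7 tested members. Between psilocybin-light and light mice, 0 of 7 were called by edgeR and 0 by DESeq2, where they called 0.608% and 1.32% of all tested genes. The unadjusted p was under 0.05 for 3 members, Mirg, Malat1 and Meg3, all lower in psilocybin-light mice. Mirg had 119, 169.7 and 214 normalized counts (lowest, median, highest) and a log2 fold change of -0.45 ± 0.17 (SE; edgeR adjusted p = 0.322). Malat1 had 2412, 2879.8 and 3389 normalized counts, with 4 of 6 mice below every light mouse, and a log2 fold change of -0.41 ± 0.16 (SE; edgeR adjusted p = 0.346).

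Meg3 had 10310.2, 13895 and 26128 normalized counts in psilocybin-light mice. Of these mice, 4 of 6 were below every light mouse and 1, library 22, was above. Its log2 fold change was -0.42 ± 0.20 (SE; edgeR adjusted p = 0.514) with a 95% interval of -0.83 to -0.0010. Miat and Snhg11 were spread in the same way, 4 of 6 mice below every light mouse and library 22 above. Neat1 (0.02, interval -0.53 to 0.57) and Rian (-0.06, interval -0.23 to 0.10) had log2 fold changes nearest to 0.

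The remaining comparisons gave no call among the members. Between psilocybin-light and psilocybin-dark mice, 0 of 7 members were called by edgeR and by DESeq2, where they called 6.38% and 8.28% of all tested genes. By edgeR 0 had an unadjusted p under 0.05. The largest log2 fold change was that of Miat, 0.35 ± 0.28 (SE; edgeR adjusted p = 0.539). Between psilocybin-dark and light mice, 0 of 8 were called by edgeR and by DESeq2, where they called 0.456% and 2.80% of all tested genes. By edgeR 4 (Meg3, Mirg, Miat and Snhg11) had an unadjusted p under 0.05. In that comparison all 8 log2 fold changes were below 0. Snhg11 (-0.57 ± 0.19, SE; edgeR adjusted p = 0.134) and Miat (-0.63 ± 0.28, SE; edgeR adjusted p = 0.285) did not overlap between the groups, which held for 2.21% of all tested genes. With only these groups in the fit, Meg3, Miat and Snhg11 were called, 3 of 8, where 1.81% of all tested genes were called.

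The interaction asked whether the effect of light and psilocybin together differed from the sum of each alone. By edgeR and by DESeq2 0 of 7 tested members were called, where they called 8.75% and 11.5% of all tested genes. The unadjusted edgeR p was under 0.05 for 3, Snhg11, Mirg and Malat1. Of the 7 estimates, 6 were below 0, from -0.48 for Meg3 to -0.64 for Snhg11 (edgeR adjusted p = 0.130), and Rian was at 0.03. Malat1, the speckle RNA, had an interaction of -0.50 ± 0.22 (SE; edgeR adjusted p = 0.162). Without dark libraries 1 and 6 it was -0.79 (edgeR adjusted p = 0.00464) and Neat1 was at -1.04 (edgeR adjusted p = 0.0242), where 21.6% of all tested genes were called in that fit. Without libraries 1, 6, 12 and 18, Malat1 was called at -0.70 (edgeR adjusted p = 0.00492) and Neat1 was not, and the share of all tested genes called was higher still. Kcnq1ot1 had an interaction of -0.95, given as a description.

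Ratios within a library compared the members directly, by an exact permutation test of 6 mice against 6 with 924 splits. There were 18 tests, adjusted together by the Benjamini-Hochberg method. The Meg3 RNA was 2.26 times as abundant in reads as Rian in dark mice and 3.36 times in light mice (geometric means). The log2 ratio of Rian to Meg3 was -1.17 ± 0.23 in dark and -1.75 ± 0.12 in light mice (SD, n = 6). The groups did not overlap, and the difference of -0.57 had an exact p of 0.00216, the smallest possible here (adjusted p = 0.0260). The ratio was also higher in psilocybin-dark than in light mice, by 0.40 (exact p = 0.00649, adjusted p = 0.0292).

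Mirg rose relative to Rian in light mice. The log2 ratio of Mirg to Rian was -5.35 ± 0.27 in dark and -4.75 ± 0.29 in light mice (SD, n = 6), a difference of 0.59 (exact p = 0.00433, adjusted p = 0.0260). In psilocybin-light mice it was -5.15 ± 0.25, 0.20 above dark mice (exact p = 0.206, adjusted p = 0.285). Neat1 rose relative to its chromosomal neighbour Malat1 in psilocybin-light mice, from -2.87 ± 0.39 in dark to -2.03 ± 0.25 (SD, n = 6), a difference of 0.84 (exact p = 0.00433, adjusted p = 0.0260). The same ratio was -2.44 ± 0.61 in light mice, a difference from dark of 0.43 (exact p = 0.175, adjusted p = 0.285). These 4 differences were the ones called of 18, and 4 of 18 were called without dark libraries 1 and 6 and without libraries 1, 6, 12 and 18. No share of called ratios over other gene pairs is given here. The ratios with Rian in light against dark mice use the same libraries as the calls of Meg3 and Mirg, so they are not separate evidence.

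**Figure D4:**
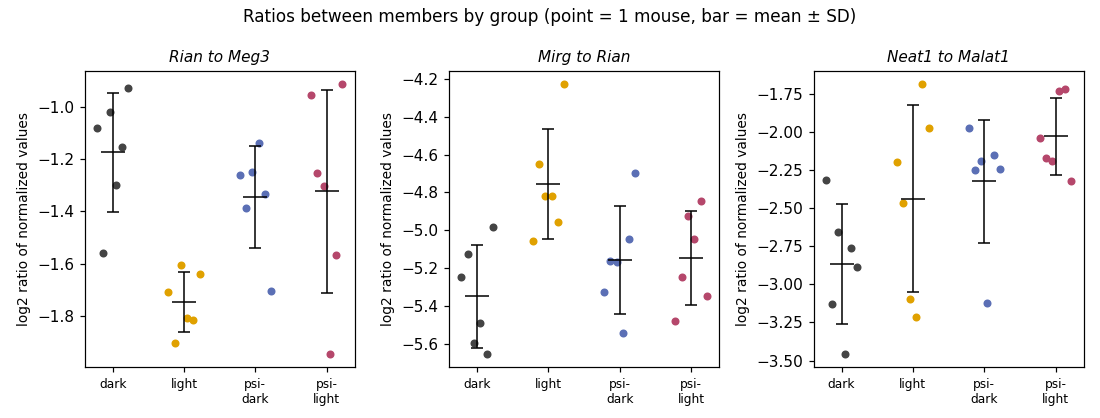
Log2 ratio of normalized values (y axis) of Rian to Meg3, Mirg to Rian and Neat1 to Malat1 in each mouse, by group on the x axis, with the mean and SD of 6 mice as bars. All light mice (-1.90 to -1.60) lie below all dark mice (-1.56 to -0.93) in the ratio of Rian to Meg3.

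The members also varied together between mice of the same group. Correlations were computed over 24 mice on log2 values less their group means, for 28 pairs, with permutation within groups and Benjamini-Hochberg adjustment. Of the 28 pairs, 10 had an adjusted p under 0.05, and all but 1 of these were among Meg3, Rian, Mirg, Miat and Snhg11. No share of called pairs over all tested genes is given here, so the count is not read as particular to the members. Among the called pairs, Mirg ranked 156th of 14463 tested genes in likeness to Meg3, and Rian ranked 884th in likeness to Mirg. The 2 values of a point come from the same library and so share its depth and dissection.

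Meg3 and Snhg11, on different chromosomes, were the closest pair. Pearson's r was 0.98 and Spearman's rho 0.97 (permutation p = 1e-05, the smallest 100000 permutations give, adjusted p = 5.6e-05), with r = 0.97 without the 2 mice farthest from the median. Within groups of 6 mice, r ran from 0.92 in light to 0.9994 in psilocybin-light mice. Each was the gene most like the other of 14463 tested genes.

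Rian and Miat had r = 0.92 and rho = 0.86 (permutation p = 1e-05, adjusted p = 5.6e-05), and r = 0.87 without the 2 farthest mice. Meg3 and Rian, of the same domain, had r = 0.87 and rho = 0.91 (permutation p = 2e-05, adjusted p = 9.33e-05). Mirg was less close to its neighbours, with r = 0.65 to Meg3 (rho = 0.65, permutation p = 0.00073, adjusted p = 0.00256) and r = 0.47 to Rian (rho = 0.61, permutation p = 0.0152, adjusted p = 0.0427). The call of Mirg with Rian was lost with DESeq2's size factors (r = 0.45, permutation adjusted p = 0.0534). In the light group r between Meg3 and Mirg was -0.07, and in the psilocybin-dark group it was 0.97.

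Kcnq1ot1 had 1 called partner, Malat1. The r was 0.65 and rho 0.73 (permutation p = 0.00048, adjusted p = 0.00192), r was 0.63 without the 2 farthest mice, and it was 0.40 to 0.86 within each group. Without libraries 1, 6, 12 and 18 it was 0.68 (adjusted p = 0.0212). The r of Kcnq1ot1 with the other 6 members lay between -0.20 and 0.08 over 24 mice, and it differed widely between groups. In psilocybin-light mice it was 0.71 with Meg3, 0.76 with Rian, 0.68 with Miat and 0.71 with Snhg11, against 0.40 with Malat1. In dark mice it was, in the same order, -0.60, -0.40, -0.58 and -0.63, against 0.67 with Malat1. With Neat1 it was 0.72 in dark and -0.84 in light mice. Malat1 was 29th of 14463 genes in likeness to Kcnq1ot1, and Kcnq1ot1 was 554th in likeness to Malat1.

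Malat1 and Neat1, neighbours on chromosome 19, had r = 0.48 and rho = 0.42 (permutation p = 0.0660, adjusted p = 0.168). The value differed widely between groups, at 0.86 in dark, -0.85 in light, 0.28 in psilocybin-dark and 0.97 in psilocybin-light mice, and it was 0.11 without dark libraries 1 and 6. Neat1 had no called partner over 24 mice. Without dark libraries 1 and 6 its correlations with Meg3 (r = 0.52, permutation adjusted p = 0.0464) and Snhg11 (r = 0.60, permutation adjusted p = 0.0134) were called. Without the dark group, a choice made after the values were seen, 16 pairs were called, and Neat1 was among the partners of Meg3 (r = 0.69, adjusted p = 0.00526) and Snhg11 (r = 0.72, adjusted p = 0.00268).

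Marker sums moved with some members within groups, given as a description with no test, from 72 pairs of a member and a marker list. The r of log2 Neat1 with the oligodendrocyte sum was 0.74 over 24 mice and 0.52 without dark libraries 1 and 6. With the excitatory sum it was -0.74, and -0.56 without those libraries, and with the cerebellar sum 0.63 and 0.46. For Malat1, r with the inhibitory sum was 0.73, and 0.555 without those libraries, and with the microglial sum -0.70 and -0.44. For Miat, r with the excitatory sum was 0.67, and 0.05 without those libraries. For Meg3 and Snhg11, r with the endothelial sum was -0.61 and -0.59, and -0.60 and -0.57 without those libraries. The part of cell makeup in these values was not tested.

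**Figure D5:**
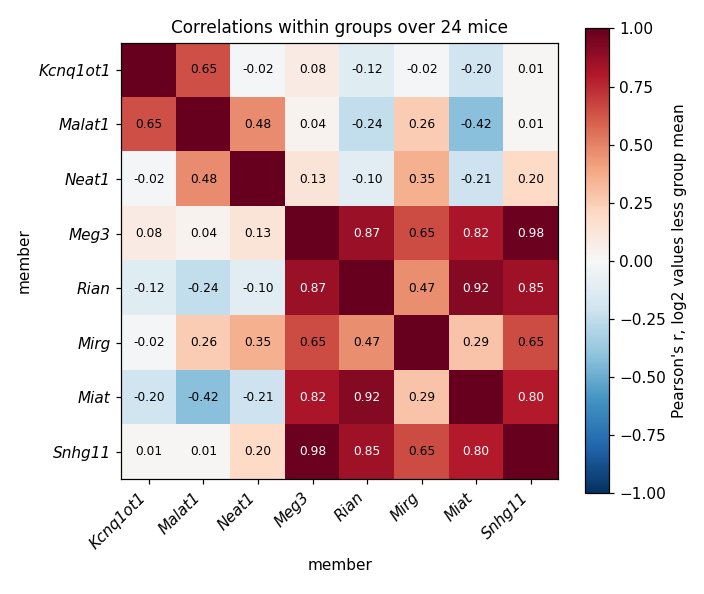
Pearson's r between members (both axes) over 24 mice after removing group means, printed in each cell and coloured from -1 to 1. Meg3, Rian, Miat and Snhg11 form a block from 0.80 to 0.98, and the highest value of Kcnq1ot1 is with Malat1 (0.65).

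The tested genes most like each member, by the same r over 24 mice, are given as a description. Behind Kcnq1ot1 came the transcripts of unknown function 9330162G02Rik (0.76) and Gm49883 (0.75) and then Kmt2d, a histone methyltransferase (0.75), Gtf2a1, a general transcription factor (0.74), and Bod1l (0.73). For Malat1 they were Ercc5 (0.86), Spag5 (0.84), Pml, the scaffold of another nuclear body (0.82), Tecr (0.81) and Camta1 (0.81). Neat1 was closest to 1700047M11Rik (0.89), Plxnb3 (0.89), the glycine transporter gene Slc6a9 (0.88), Serpinb1a (0.87) and Mid2 (0.86).

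Meg3 and Snhg11 shared Akap8l (0.93 and 0.94), Cnot10 (0.90 and 0.91), Fam193b (0.90 and 0.91) and Arglu1 (0.90 and 0.92) behind each other. Rian followed Miat and Meg3 with Gramd1a (0.86), Cnot10 (0.86) and Arglu1 (0.86). Mirg was closest to Clk4, a kinase of splicing factors (0.88), Clasrp (0.87), Mrgbp (0.84), Fam193b (0.83) and AI480526 (0.82). Miat was closest to Zmym3 (0.93), Rian (0.92), Crocc (0.92), Srsf12 (0.90) and Rab36 (0.90).

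The imprinted neighbours of the members were read from lists of domain genes. Of 11 genes listed around Kcnq1ot1, 6 were tested. Kcnq1, the potassium channel gene that Kcnq1ot1 overlaps, reached the minimum count of 30 in 2 dark libraries and in no library of another group. It entered the table through the group where it was high, so its values are a description, with no test. Kcnq1 had 5.48, 18.0 and 32.3 normalized counts in dark mice (lowest, median, highest), 4.13, 8.28 and 11.5 in light, 3.21, 7.99 and 16.0 in psilocybin-dark and 4.30, 5.49 and 7.63 in psilocybin-light mice.

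Of the other 5 domain genes tested, 1 was higher and 0 lower in light, 1 higher and 2 lower in psilocybin-dark, and 1 higher and 1 lower in psilocybin-light than in dark mice, where 31.9%, 24.7% and 38.4% of all tested genes were called. Osbpl5 was called higher in all 3 of these comparisons, by 0.34 in light, 0.26 in psilocybin-dark and 0.28 in psilocybin-light mice on the log2 scale. Cd81 was called lower in psilocybin-dark (-0.23) and psilocybin-light mice (-0.38). Between psilocybin-light and light mice, where Kcnq1ot1 was described as lower, 0 of these 5 genes were called, against 0.608% of all tested genes.

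In the Dlk1-Dio3 domain all 7 listed genes were tested, and 1 was higher and 4 lower in light than in dark mice, where 15.4% of all tested genes were higher and 16.5% lower. The paternally expressed Dlk1, a Notch-related ligand, and Dio3, an enzyme that inactivates thyroid hormone, were far lower outside the dark group. Dlk1 had 8.22, 892 and 1817 normalized counts in dark mice (lowest, median, highest) and at most 50.2 in light mice, and its log2 fold change was -5.60 (edgeR adjusted p = 1.03e-05). Dio3 had 19.2, 389 and 1095.0 in dark and at most 70.3 in light mice, with a log2 fold change of -3.58 (edgeR adjusted p = 7.8e-05). Dark library 6 was the lowest of its group for both genes, within the light range for Dlk1 and below the lowest light mouse, at 22.4, for Dio3. The hippocampal marker sum was higher in the dark group as well, and its part in these values was not tested. Against light mice the psilocybin-light group had 0 of 7 domain genes called, where 0.608% of all tested genes were called.

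Proteins of the bodies and of RNA decay were read beside the RNAs. Of 28 paraspeckle proteins, the partners of Neat1, 3 were higher and 4 lower in light than in dark mice, and 4 were higher and 11 lower in psilocybin-light mice. Over all tested genes 15.4% were higher and 16.5% lower in light, and 17.4% higher and 21.0% lower in psilocybin-light mice. Rbm3, a cold-inducible RNA-binding protein, was higher by 0.50 in light (edgeR adjusted p = 0.0181) and 0.82 in psilocybin-light mice (edgeR adjusted p = 0.000288). Nono, a core paraspeckle protein, was lower in light mice at -0.11 (edgeR adjusted p = 0.0227). Pspc1, another core protein, was the only paraspeckle gene called between psilocybin-light and light mice, higher by 0.24 (edgeR adjusted p = 0.0431). In that comparison 0.608% of all tested genes were called.

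Of 26 genes of nuclear speckle proteins, the company of Malat1, 9 were higher and 4 lower in light than in dark mice. Over all tested genes 15.4% were higher and 16.5% lower. The list median was 0.10 against -0.01 over all genes. Pnisr was higher by 0.41 (edgeR adjusted p = 0.00183) and Luc7l3 by 0.32 (edgeR adjusted p = 0.00207). Between psilocybin-light and light mice, where 0.608% of all tested genes were called, 0 were higher and 2 lower, Acin1 at -0.27 (edgeR adjusted p = 0.00328) and Rbm25 at -0.25 (edgeR adjusted p = 0.0406).

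Of 14 genes of nuclear RNA decay and processing, Mettl16, an RNA methyltransferase that binds the end of Malat1, was lower in all 3 comparisons with the dark group. It had 645, 769 and 843 normalized counts in dark mice (lowest, median, highest), 504, 609.99 and 637 in light, 547, 581 and 619 in psilocybin-dark and 437, 476 and 537 in psilocybin-light mice. The log2 fold change of psilocybin-light against light mice was -0.32 (edgeR adjusted p = 0.0266). Ythdc1, a nuclear reader of methylated RNA, was lower as well in that comparison, at -0.19 (edgeR adjusted p = 0.0244), and these were the 2 of 14 called there, against 0.608% of all tested genes. Pabpn1, the nuclear poly-A binding protein, was higher by 0.52 in light mice (edgeR adjusted p = 0.00288).

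Of the 8 chromatin factors listed as partners of Kcnq1ot1, the Polycomb subunit gene Suz12 was called lower in light (-0.22, edgeR adjusted p = 0.00579) and psilocybin-light mice (-0.34, edgeR adjusted p = 0.000104) than in dark mice. Suz12 was the 1 of 8 called in each, where 31.9% and 38.4% of all tested genes were called. Dnmt1 was higher by 0.15 in psilocybin-dark mice (edgeR adjusted p = 0.0432), also 1 of 8, where 24.7% of all tested genes were called. Between psilocybin-light and light mice 0 of 8 were called, against 0.608% of all tested genes.

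Among 39 other lncRNAs, 32 were tested, and 7 were higher and 2 lower in light than in dark mice, where 15.4% of all tested genes were higher and 16.5% lower. Pantr1, a neural lncRNA, had 169.97, 296 and 357 normalized counts in dark and 456, 625 and 698 in light mice (lowest, median, highest), with a log2 fold change of 1.14 (edgeR adjusted p = 1.67e-05). Tug1 was lower at -0.27 (edgeR adjusted p = 0.000746). Between psilocybin-light and light mice 1 of 32 was called: Mir9-3hg, a host of miR-9, with 317, 363 and 398 normalized counts in light and 459, 498 and 534 in psilocybin-light mice, higher by 0.46 (edgeR adjusted p = 0.0363). Its groups did not overlap, which held for 1.62% of all tested genes in that comparison, and 0.608% were called there.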

How the data were processed

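Visual cortex RNA of 24 mice was measured with 1 library per mouse. The authors trimmed reads with cutadapt, aligned them with STAR (to GRCm39 in the study's methods, to mm10 in the submitters' processing notes) and used htseq-count to count reads per gene. Raw counts of 55414 genes were deposited, with no normalization. The annotation release and strand setting are not given in the sources used here. Groups follow the headings of the supplementary table.

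The main analysis used edgeR 4.0.16 (R 4.3.3, limma 3.58.1): TMM scaling, then the two-sided quasi-likelihood test with a term for each group over all 24 libraries, for the 14464 genes that reached a count of 30 in any library. The p-values were adjusted by Benjamini-Hochberg over all genes tested, at a threshold of 0.05. They weigh a group difference against the variation between single mice, pooled over all groups and moderated across genes. Normalized counts are per 16058300 counts, the mean effective library size. RPKM divides by the exon union of GENCODE vM39, which named 54749 of 55414 identifiers. Correlations used log2 values with a prior count of 2, and ratios used log2 normalized counts with no prior count. Ratios were compared by exact permutation, and correlations by 100000 permutations within groups. Dixon's ratio (critical value 0.625) was applied to 32 groups of 6 mice, and none passed it.

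As alternatives, DESeq2 1.42.0 or its size factors, other count filters, a fit of each pair of groups alone, a surrogate variable (sva 3.50.0), a hippocampal score as covariate, and fits without dark libraries 1 and 6 or without each library were run. Fits without libraries 1, 6, 12 and 18, and correlations without the dark group, were added after seeing the data. The members, lists and tests were chosen with earlier results of these data known. Named genes are the members, genes among the 4 of each list with the smallest adjusted p in a comparison, and the 5 genes most like each member. Each test was tried on simulated data. With total counts of 13552516 to 17906994 per library, the common biological coefficient of variation was 0.182. Plots used matplotlib 3.10.9 with Python 3.11.15.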

Additional observations from a re-analysis of the deposited data

How the results depend on the processing

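The number of members called against the dark group in light was 3 to 6 under all alternatives, while the share of all tested genes called ran from 8.37% (hippocampal score) to 43.1% (without libraries 1, 6, 12 and 18). In psilocybin-dark against dark mice it was 0, and 1 with a surrogate variable (35.5% of all tested genes) and 3 without dark libraries 1 and 6 (33.6%). There it was 2 without libraries 1, 6, 12 and 18 (38.3%), and 0 to 1 with single libraries left out (19.0% to 29.2%). In psilocybin-light against dark mice it was 1, and 3 with DESeq2 (40.0%), 2 with DESeq2's size factors (38.4%) and 0 with only the compared groups (30.1%). There it was 3 with a surrogate variable (46.9%), and 0 to 3 with single libraries left out (33.9% to 40.1%). In psilocybin-dark against light mice it was 0, and 3 with only the compared groups (1.81%) and 1 without dark libraries 1 and 6 (4.82%). For the interaction it was 0, and 1 with a surrogate variable (20.4%), 2 without dark libraries 1 and 6 (21.6%), 1 without libraries 1, 6, 12 and 18, and 0 to 1 with single libraries left out. The interaction was not run for only the compared groups. Correlated pairs numbered 10, 9 with DESeq2's size factors, 14 without dark libraries 1 and 6, 12 without libraries 1, 6, 12 and 18, and 16 without the dark group. The causes were not tested.

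Log2 fold changes that changed sign had not been called. Without dark libraries 1 and 6, and without libraries 1, 6, 12 and 18, Rian was -0.076 and -0.084 in light against dark, Meg3 -0.11 and -0.21 and Miat -0.029 and -0.0080 in psilocybin-dark against dark, and Malat1 0.18 and 0.18 and Meg3 -0.020 and -0.022 in psilocybin-light against dark. With a surrogate variable Malat1 was 0.0037 in psilocybin-light against dark. With the hippocampal score Rian was 0.047 in psilocybin-dark and 0.15 in psilocybin-light against dark, and -0.088 in the interaction.

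With single libraries left out, Rian ran from -0.029 to 0.077 in light against dark. In psilocybin-dark against dark, Kcnq1ot1 ran from -0.065 to 0.11, Malat1 from -0.0071 to 0.22 and Meg3 from -0.035 to 0.18. In psilocybin-light against dark, Malat1 ran from -0.21 to 0.026, Meg3 from -0.062 to 0.27 and Rian from -0.091 to 0.014. Neat1 ran from -0.10 to 0.12 in psilocybin-light against light and from -0.20 to 0.029 in psilocybin-dark against light. In psilocybin-light against psilocybin-dark, Neat1 ran from -0.013 to 0.22, Meg3 from -0.12 to 0.19 and Mirg from -0.028 to 0.18. Rian ran from -0.022 to 0.088 in the interaction.

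No paired analysis was possible because each library number occurs in 1 group only. Kcnq1ot1 rested on 43 to 193 reads per library. The conflict over light exposure was not settled by these files.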
